A study of Mus musculus with 8 samples.

Results

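The 9 genes described here are 7 transcription factors of the trophoblast lineage (Cdx2, Eomes, Elf5, Tead4, Tfap2c, Gata3 and Hand1) and the keratin pair of simple epithelia, Krt8 and Krt18. They were taken by gene symbol from the 36920 genes of the deposited count table, all 9 symbols matched 1 Ensembl identifier each, and 8 of the 9 passed the filter on low counts. RNA was measured by sequencing in the R1 line of mouse embryonic stem cells, held in medium described as Serum+Lif. ML-792 blocks the E1 enzyme that starts the attachment of SUMO, a small protein, to other proteins. The D3 and D10 libraries are labelled ML-792 and the D1 and D8 libraries control, with 2 replicates in each of the 4 groups. Per the labels, the inhibitor was applied for 48 h ahead of D3 and again for 48 h ahead of D10, at a concentration given as 2.5 mM. The D8 cells are therefore controls that had already been through the first exposure. No library was taken at D3 or D10 without the inhibitor, so ML-792 cannot be told apart from 48 h of culture. All libraries come from the R1 line, and the labels do not say whether replicates are separate cultures, so p-values measure the spread between these samples, which may be technical. The comparisons ask how the genes differed after each exposure (D3 with D1, D10 with D8), between the controls (D8 with D1), and whether the D10 response differed in size from the D3 response. The D8 with D1 comparison shares its libraries with the first 2.

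In the blastocyst, trophectoderm forms where Tead4, a DNA-binding factor whose co-activators Yap1 and Wwtr1 are held out of the nucleus by Hippo signalling, switches on Cdx2 and Gata3. Cdx2, Eomes, Elf5 and Tfap2c then hold trophoblast stem cells in their state, and Hand1 acts in their differentiation to trophoblast giant cells. Krt8 and Krt18 proteins pair into the first intermediate filaments of the embryo, in trophectoderm, and are also made by extraembryonic endoderm. Mouse embryonic stem cells are derived from the inner cell mass and usually carry little RNA of Cdx2, Elf5 or Hand1.

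Tead4 fell at both exposures, and it was the 1 member called in either. The other 7 tested members were not called at D3 against D1, beside 13% of all 19173 tested genes that were. At D10 against D8 the count was again 1 of 8, beside 16.9% of all genes. Between the controls, none of the 8 was called at D8 against D1, where 0.177% of all genes were (34 genes, with 2311 at an unadjusted p under 0.05 and 429 called by DESeq2). The difference between the responses had no called member and no called gene, that is 0% (575 genes at an unadjusted p under 0.05, and 3 called by DESeq2). Over all 4 ML-792 libraries and all 4 control libraries the count was 1 of 8, beside 28.7% of all genes. Calls are at an adjusted p under 0.05 from edgeR's quasi-likelihood test with Benjamini-Hochberg adjustment over all tested genes. The same shares of all genes stand beside the counts of list genes given below. The series text names no block, and replicate numbers were taken to pair the samples from correlations across genes in these same data. A fit with the replicate as a block called 1 member at D3 against D1 (21.8% of all genes), 2 at D10 against D8 (27.6%) and 3 at D8 against D1 (2.79%). Calls made only with the block rest on that pairing, and the members concerned are named below.

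The libraries held 21040992 to 40835518 reads in genes. Levels are in CPM, that is, reads relative to each library's total with TMM factors applied, and levels of different genes are set side by side only in RPKM, which divides CPM by exon length in kilobases. The cells carried the RNA of embryonic stem cells in every group, with group means of 776 to 1259 CPM for Pou5f1, 325 to 375 CPM for Sox2 and 270 to 763 CPM for Nanog. In 3 of the 4 ML-792 libraries, genes of higher GC content had lower counts relative to the mean library (Spearman's rho across genes -0.33, -0.284 and -0.336, against 0.042 in D10 replicate 2), while the controls ranged between -0.0627 and 0.546. Corrected values are given where this changes the call of a named gene.

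**Figure D1:**
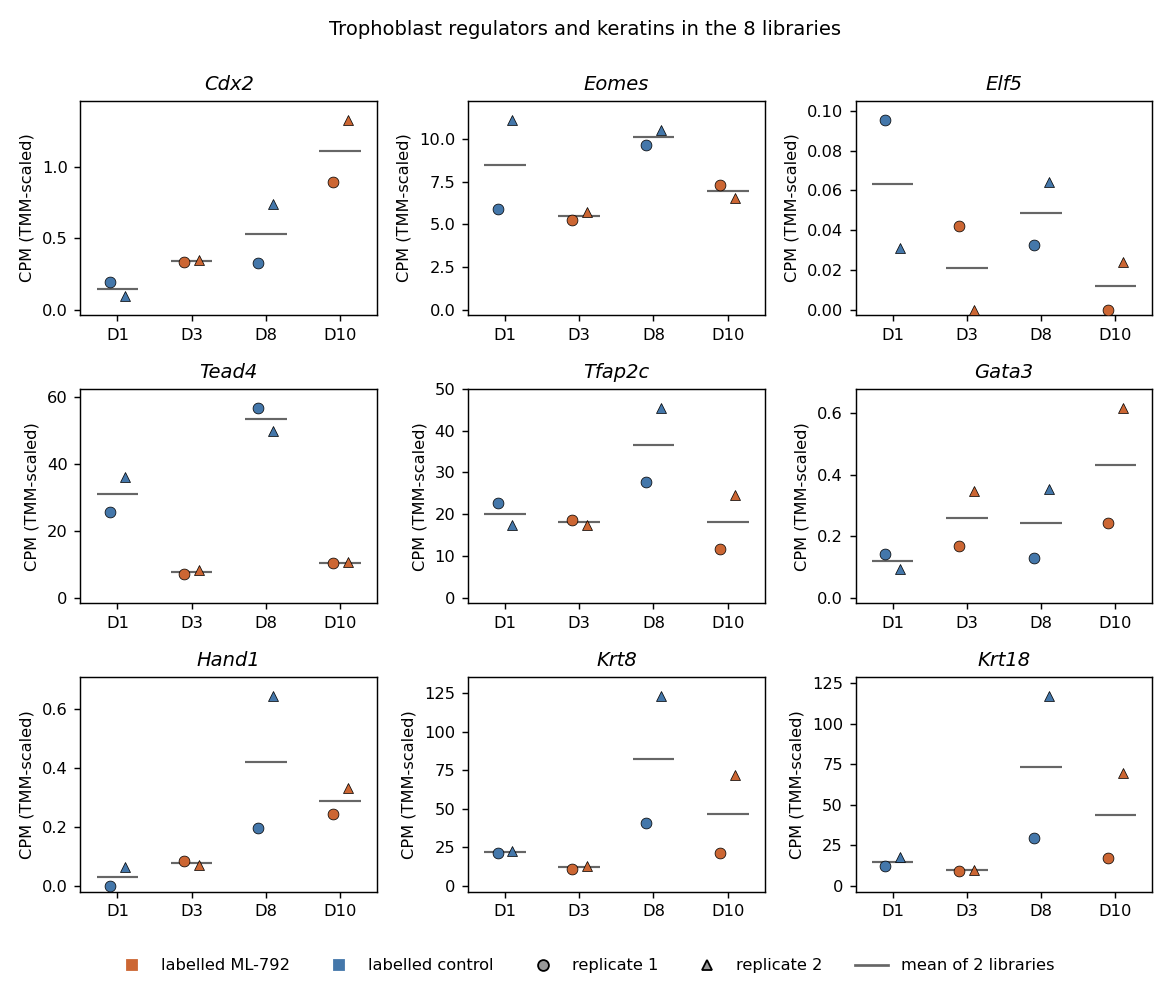
TMM-scaled CPM (linear axis, own scale for each gene) of the 9 members in each library, by day; points are libraries, coloured by label and shaped by replicate number, and grey bars are means of 2. Tead4 lies between 7.19 and 10.6 CPM in the ML-792 libraries and between 25.6 and 56.7 CPM in the controls, whereas Krt8 and Krt18 separate replicate 2 from replicate 1 at D8 and D10.

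Per kilobase, the members fell into a higher set of 5 genes and a lower set of 4 genes in all 4 groups. At D1, Krt8 stood at 11.2 ± 0.476 RPKM, Krt18 at 10.3 ± 2.64, Tead4 at 8.58 ± 2.07, Tfap2c at 5.44 ± 1.02 and Eomes at 2.04 ± 0.891 RPKM (SD, n = 2). The remaining D1 levels were 0.0629 RPKM for Cdx2, 0.0297 for Gata3, 0.0155 for Hand1 and 0.0108 for Elf5, with SDs of 0.0307, 0.00893, 0.022 and 0.00776, so the last 3 cannot be ordered beyond their spread. Krt8 and Krt18 overlapped in every group and so cannot be ordered. Tead4 was above Tfap2c in both D1 and both D8 libraries by RPKM and below it in both D3 and both D10 libraries: at D3, Tead4 had 2.16 ± 0.228 and Tfap2c 4.90 ± 0.252 RPKM, and at D10 Tead4 had 2.91 ± 0.057 and Tfap2c 4.93 ± 2.47 RPKM. Among the low genes, the highest level was that of Cdx2 at D10, 0.491 ± 0.137 RPKM, which is below the 1.67 ± 0.125 RPKM of Eomes in the same libraries.

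Tead4 (chr6:128224288-128300823, minus strand, GRCm38) had 7.19 and 8.35 CPM in the D3 libraries, against 25.6 and 36.1 CPM in the D1 libraries. The D3 level was 3.97-fold lower (log2 fold change -1.99 ± 0.20 SE, adjusted p = 0.00194, edgeR). In the second exposure it had 10.3 and 10.6 CPM in the D10 libraries, against 56.7 and 49.8 CPM in the D8 libraries. The D10 level was 5.08-fold lower (-2.35 ± 0.20, adjusted p = 0.000816). The groups did not overlap in either comparison, and the ML-792 libraries of both days lay in a narrower range than the controls. The second change differed from the first by -0.36 ± 0.28 on the log2 scale, which was not called (adjusted p = 1). Each held in all 8 fits that left out 1 library, with log2 fold changes of -2.24 to -1.72 at D3 against D1 and -2.47 to -2.25 at D10 against D8. With the GC correction they were -1.83 and -2.05, and both were called. Over all ML-792 and control libraries the log2 fold change was -2.20 ± 0.24 (adjusted p = 0.000239).

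Tead4 was also higher in both D8 libraries than in both D1 libraries, by 0.78 ± 0.19 on the log2 scale. This was not called (adjusted p = 0.191), but with the replicate block it was (0.80, adjusted p = 0.0391), as with DESeq2 (adjusted p = 0.0295). With the GC correction the difference was 0.54 (adjusted p = 0.291). The processed pseudogene Gm21893, which lies within Tead4 on the other strand and shares no exon base with it, had 0 or 1 read per library.

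None of the other TEAD genes, which bind the same DNA element, was called lower at D3 against D1 or at D10 against D8. Tead1 had 84.1 and 81.2 CPM in the D3 libraries, against 45.3 and 48.6 CPM in the D1 libraries, a rise of 0.82 ± 0.17 on the log2 scale (adjusted p = 0.018, edgeR). That call was lost in 4 of 8 fits that left out 1 library, with an adjusted p of up to 0.126. At D10 against D8 the value for Tead1 was 0.41 ± 0.17 (adjusted p = 0.136). Tead2 stood at -0.41 ± 0.14 at D3 against D1 and -0.33 ± 0.14 at D10 against D8, and Tead3 at 0.58 ± 0.25 and 0.37 ± 0.24 in the same order, none of them called. Tead2 averaged 103.9 CPM at D3 against 137.9 CPM at D1. Over all ML-792 and control libraries Tead2 was called lower (-0.37 ± 0.09, adjusted p = 0.0133, edgeR). In the same fit Tead1 was called higher (0.62 ± 0.13, adjusted p = 0.006).

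Among all tested genes, 13% were called at D3 against D1 and 16.9% at D10 against D8. Of 20 tested genes of the Hippo pathway, 2 were higher and none lower at D3 against D1, with a median log2 fold change of 0.26 (median of all genes -0.0019). Beside Tead1, the second was Lats2, the kinase that phosphorylates Yap1, at 5.45 against 2.72 CPM (1.002 ± 0.27, adjusted p = 0.0418, called in 2 of 8 fits without 1 library). Lats2 was also the 1 called gene of the list at D10 against D8, at 5.38 against 2.41 CPM (1.16 ± 0.27, adjusted p = 0.0212, called in 4 of 8). At D8 against D1 the 1 called gene was Amot, an upstream regulator that retains Yap1 at junctions, at 36.6 against 4.95 CPM (2.88 ± 0.30, adjusted p = 0.0412, called in 5 of 8). With the replicate block the counts were 4 higher and 2 lower, 3 higher and 2 lower, and 3 higher and none lower in these comparisons. The list had no call at D3 against D1 without D1 replicate 1, at D10 against D8 without D10 replicate 1, or at D8 against D1 without D1 replicate 1. Its median at D3 against D1 was -0.12 with the GC correction, of the opposite sign. Yap1 itself averaged 186.9 CPM at D3, 178.6 CPM at D1, 195.8 CPM at D10 and 176 CPM at D8.

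Tfap2c (chr2:172549593-172558622, plus strand), which encodes the AP-2 gamma factor of trophoblast and germ cells, had 18.7 and 17.4 CPM in the D3 libraries, against 22.6 and 17.4 CPM in the D1 libraries. The groups overlapped (-0.15 ± 0.35, adjusted p = 0.824, edgeR). In the second exposure it had 11.7 and 24.6 CPM in the D10 libraries, against 27.7 and 45.5 CPM in the D8 libraries, and within each replicate number the D10 value was the lower. The log2 fold change of -1.003 ± 0.35 was not called (adjusted p = 0.0837), while with the replicate block it was -1.02 ± 0.29 and called (adjusted p = 0.0276), and DESeq2 also called it (adjusted p = 0.0301). In fits without 1 library it ran from -0.57 (adjusted p = 0.341, without D10 replicate 1) to -1.68 (adjusted p = 0.0214, without D10 replicate 2), and it was also called without D8 replicate 1 (-1.32, adjusted p = 0.0331) and was -0.64 (adjusted p = 0.316) without D8 replicate 2. Its level at D8 was 36.6 ± 12.6 CPM against 20.0 ± 3.75 CPM at D1 (SD, n = 2; 0.87 ± 0.35, adjusted p = 0.37). The difference between the responses was -0.86 ± 0.49 and not called, so a response at D10 but not at D3 is not shown.

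Its relatives had few reads. Tfap2a, used in surface ectoderm, neural crest and trophoblast, averaged 0.594 CPM at D3 against 0.72 at D1 and 0.538 at D10 against 0.713 at D8, with no call. Tfap2e had 1.46 and 1.40 CPM in the D10 libraries, against 0.196 and 0.193 CPM in the D8 libraries (2.85 ± 0.49, adjusted p = 0.00728), a rise that held in all 8 fits without 1 library. At D3 against D1 it had 0.463 and 0.87 CPM, against 0.0956 and 0.217 CPM (2.00 ± 0.55, adjusted p = 0.0456), called in 1 of those 8 fits.

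Eomes (chr9:118478212-118486132, plus strand), a T-box factor of trophoblast stem cells that also acts in the primitive streak, had 5.26 and 5.71 CPM in the D3 libraries, against 5.88 and 11.1 CPM in the D1 libraries. In the second exposure it had 7.29 and 6.55 CPM in the D10 libraries, against 9.64 and 10.5 CPM in the D8 libraries. All 4 ML-792 values lay under both D8 values, and D1 replicate 1 lay among the ML-792 values. The log2 fold changes were -0.64 ± 0.30 (adjusted p = 0.2) and -0.54 ± 0.29 (adjusted p = 0.239), and over all libraries -0.58 ± 0.21 (adjusted p = 0.0662, edgeR). The last was called by DESeq2 (adjusted p = 0.0317) and by edgeR without D1 replicate 1 (-0.78, adjusted p = 0.00842). D8 differed from D1 by 0.24 ± 0.29. The antisense gene Gm33460 shares 118 exon bases with Eomes and had 4.8% to 9.76% as many reads, and whether strand was used in counting is not given in the sources used here.

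Of the other T-box genes, Tbx3, which is part of the naive pluripotency network and is also used in trophoblast, had 35.0 and 41.5 CPM in the D3 libraries, against 76.2 and 77.4 CPM in the D1 libraries (-1.004 ± 0.14, adjusted p = 0.00465, not called without D3 replicate 1). At D10 against D8 it had 27.7 and 32.5 CPM, against 68.5 and 66.7 CPM (-1.16 ± 0.14, adjusted p = 0.0022, called in all 8 fits without 1 library). Brachyury (T), the streak and mesoderm factor, had 1.86 and 2.26 CPM in the D10 libraries, against 0.36 and 0.611 CPM in the D8 libraries (2.08 ± 0.50, adjusted p = 0.0246), called in 4 of the 8 fits. At D3 against D1 it stood at 2.08 ± 0.60 (adjusted p = 0.0538).

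Cdx2 (chr5:147300805-147307270, minus strand), the homeobox factor that defines trophectoderm, had at most 10 reads in the D3 and D1 libraries and up to 56 at D10. It had 8 and 10 reads (0.336 and 0.348 CPM) in the D3 libraries, against 4 and 3 reads (0.191 and 0.0931 CPM) in the D1 libraries. In the second exposure it had 22 and 56 reads (0.891 and 1.33 CPM) in the D10 libraries, against 10 and 23 reads (0.327 and 0.74 CPM) in the D8 libraries. In each of the 2 exposures both ML-792 libraries were above both controls, and D10 replicate 2 held the highest value. The log2 fold changes of 1.32 ± 0.68 (adjusted p = 0.246) and 1.07 ± 0.49 (adjusted p = 0.172) were not called. With the GC correction the D10 against D8 value was 1.38 and called (adjusted p = 0.0457, or 0.0298 with the replicate block added). The controls differed by 1.96 ± 0.64 at D8 against D1 (adjusted p = 0.303).

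The relatives of Cdx2 are used in the posterior embryo. Cdx4 had 16 and 17 reads in the D10 libraries, against 1 and 2 in the D8 libraries, and 6 and 16 in the D3 libraries, against 1 and 2 in the D1 libraries. All control values were under the limit of 3 reads per library, so the sizes of its fold changes rest on few reads. Cdx4 had 0.648 and 0.404 CPM in the D10 libraries, against 0.0327 and 0.0643 CPM in the D8 libraries (3.29 ± 0.72, adjusted p = 0.0176), called in 5 of 8 fits without 1 library. At D3 against D1 it had 0.252 and 0.557 CPM, against 0.0478 and 0.0621 CPM (2.78 ± 0.76, adjusted p = 0.045), and no fit without 1 library called it. Cdx1 stood at -0.24 ± 0.41 at D3 against D1 and -0.81 ± 0.42 at D10 against D8, neither called.

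Gata3 (chr2:9857078-9890034, minus strand), a trophectoderm GATA factor, had 4 and 10 reads in the D3 libraries, against 3 and 3 reads in the D1 libraries. It had 6 and 26 reads (0.243 and 0.617 CPM) in the D10 libraries, against 4 and 11 reads (0.131 and 0.354 CPM) in the D8 libraries. The second pair of groups overlapped, and replicate 2 was the higher in D3, D8 and D10. The log2 fold changes of 1.17 ± 0.84 and 0.88 ± 0.67 were not called. The gene 9230102O04Rik shares 77 exon bases with Gata3 and had 0 or 1 read, and 4930412O13Rik, on the other strand, had 0 to 7 reads.

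Among its relatives, Gata2, which acts with Gata3 in trophoblast, had 0.673 and 0.592 CPM in the D3 libraries, against 3.39 and 2.83 CPM in the D1 libraries. It fell by 2.29 ± 0.37 on the log2 scale (adjusted p = 0.00689, edgeR), a call that held in all 8 fits without 1 library. At D10 against D8 it had 0.972 and 0.807 CPM, against 1.24 and 2.03 CPM (-0.89 ± 0.35, adjusted p = 0.124). Gata6 and Gata4, the endoderm GATA factors, were higher at D8 than at D1, by 2.28 ± 0.26 (adjusted p = 0.0412) and 3.01 ± 0.44 (adjusted p = 0.048). No D8 against D1 call of a relative held in all 8 fits without 1 library.

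Hand1 (chr11:57828705-57832818, minus strand), a helix-loop-helix factor of trophoblast giant cells and extraembryonic mesoderm, had 2 and 2 reads in the D3 libraries, against 0 and 2 reads in the D1 libraries. In the second exposure it had 6 and 14 reads in the D10 libraries, against 6 and 20 reads in the D8 libraries. Each D8 library had more reads than any D1 or D3 library, and D10 and D8 overlapped. None of its comparisons was called (adjusted p = 0.676 at D3 against D1, 0.645 at D10 against D8 and 0.258 at D8 against D1). With 2 reads in all at D1, the fitted fold of D8 over D1 depends on the prior count and is not given, nor is that of D3 over D1.

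Elf5 (chr2:103411688-103450989, plus strand), an ETS-family factor that maintains the trophoblast stem cell state and is silenced by DNA methylation in embryonic stem cells, had 1 and 0 reads in the D3 libraries, against 2 and 1 in the D1 libraries. It had 0 and 1 reads in the D10 libraries, against 1 and 2 in the D8 libraries. All 8 values were under 3 reads, the level taken as the limit of detection per library, and Elf5 did not pass the filter on low counts. Its relative Elf3, an epithelial ETS factor, was expressed and lower in both exposures. It had 12.3 and 13.8 CPM in the D3 libraries, against 25.9 and 27.7 CPM in the D1 libraries (-1.03 ± 0.28, adjusted p = 0.0444, called in 4 of 8 fits without 1 library), and 8.87 and 15.1 CPM in the D10 libraries, against 28.2 and 43.6 CPM in the D8 libraries (-1.57 ± 0.28, adjusted p = 0.00832). The D10 call held in all 8 fits without 1 library. Elf2 was lower in both, with log2 fold changes of -0.73 ± 0.16 (called in 5 of those 8 fits) and -0.57 ± 0.16 (called in 1).

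**Figure D2:**
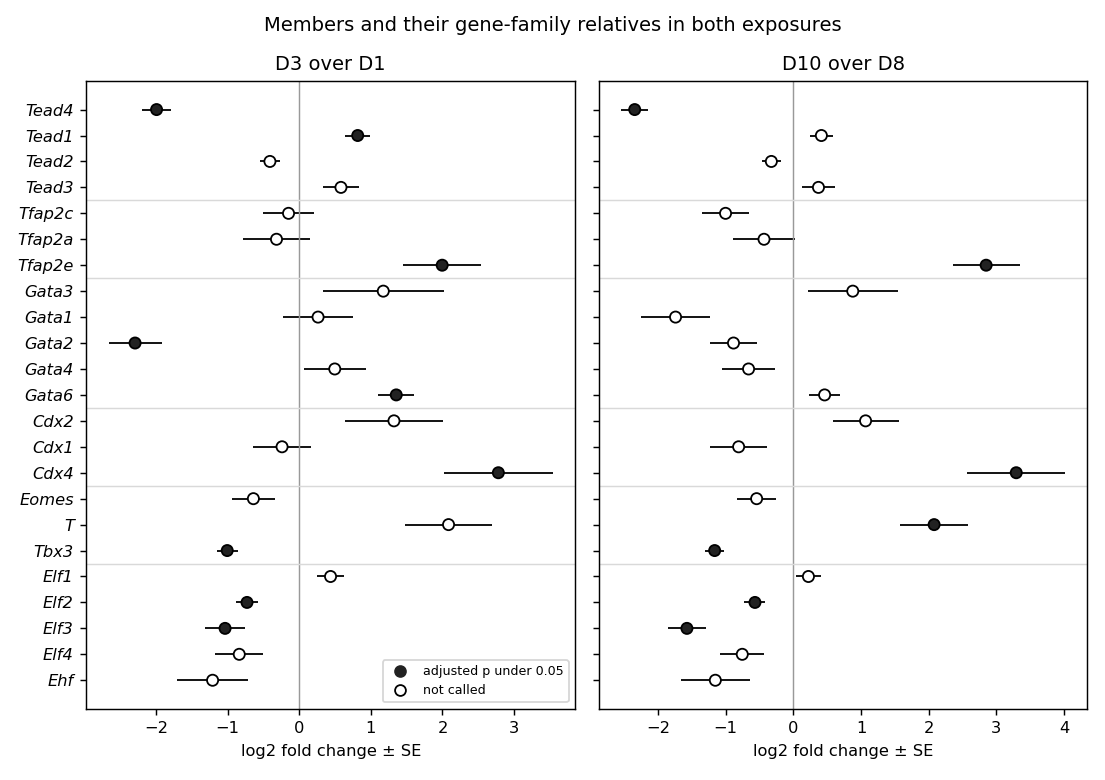
Log2 fold changes with SE of 5 members and their tested gene-family relatives, D3 over D1 on the left and D10 over D8 on the right; filled points have an adjusted p under 0.05 and grey lines part the families. Tead4 lies at -1.99 and -2.35 while Tead1 lies at 0.82 and 0.41; the call for Tead1 is at D3 over D1.

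Krt8 (chr15:101996698-102004482, minus strand) and Krt18 (chr15:102028180-102032027, plus strand) are neighbours, and their products, a type II and a type I keratin, form the obligate pair of the filament. Their RefSeq start regions on GRCm38.p6, from 250 bases upstream of the start to 50 bases into the transcript, are shown because each keratin was the gene most like the other across the 8 libraries. Capitals mark the matches to the binding motifs of the factor families studied here: in Krt8, AGATAA for the GATA factors and ACTTCC, the reverse complement of GGAAGT, for the ETS factors, and in Krt18, GCCNNNGGC for the AP-2 factors. The Krt8 window is chr15:102004293-102004592 on the minus strand, and the Krt18 window is chr15:102027966-102028265 on the plus strand.
Krt8: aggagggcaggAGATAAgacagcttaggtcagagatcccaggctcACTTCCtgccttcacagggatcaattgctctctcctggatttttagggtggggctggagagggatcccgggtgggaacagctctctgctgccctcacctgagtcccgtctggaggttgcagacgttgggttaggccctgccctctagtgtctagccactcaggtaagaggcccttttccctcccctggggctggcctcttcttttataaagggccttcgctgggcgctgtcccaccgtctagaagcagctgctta
Krt18: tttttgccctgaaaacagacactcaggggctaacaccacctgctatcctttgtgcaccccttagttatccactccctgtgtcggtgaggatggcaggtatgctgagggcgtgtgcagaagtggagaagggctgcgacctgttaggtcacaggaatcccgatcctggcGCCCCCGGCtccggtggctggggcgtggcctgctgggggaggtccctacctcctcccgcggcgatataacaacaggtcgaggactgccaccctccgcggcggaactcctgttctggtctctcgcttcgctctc
The matches begin 239 and 205 bases before the start of Krt8, and 83 bases before that of Krt18. On either strand, AGATAA was in 11.2%, GGAAGT in 23.8% and GCCNNNGGC in 16.6% of the 32851 RefSeq mouse promoters of this length. Neither window holds GGAATG for the TEAD factors, which is in 14.7% of promoters, TTTATG for the CDX factors, in 11.9%, or AGGTGTGA for the T-box factors, in 1.28%. None of the 6 motifs searched occurs in both windows.

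Krt8 had 11.1 and 12.9 CPM in the D3 libraries, against 21.3 and 22.6 CPM in the D1 libraries. Krt18 had 9.38 and 9.53 CPM in the D3 libraries, against 12.1 and 17.5 CPM in the D1 libraries. Both genes had lower values in both D3 libraries than in either D1 library, but the log2 fold changes, -0.87 ± 0.59 for Krt8 (adjusted p = 0.38) and -0.65 ± 0.71 for Krt18 (adjusted p = 0.598), were not called. A fit of the D3 and D1 libraries alone, with their own estimate of the spread, called Krt8 (-0.88, adjusted p = 0.00899).

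At D10 and D8 the replicates stood apart. Krt8 had 21.3 and 71.9 CPM in D10 replicates 1 and 2, against 41.1 and 123.3 CPM in D8 replicates 1 and 2. Krt18 had 17.4 and 69.4 CPM in the same D10 libraries, against 29.4 and 117.1 CPM in the D8 libraries. Replicate 2 was 3.37-fold above replicate 1 at D10 and 3-fold at D8 for Krt8, and 3.98-fold at both days for Krt18, whereas at D3 and D1 the ratio was 1.16 and 1.06 for Krt8 and 1.02 and 1.44 for Krt18. Within each replicate number D10 was lower than D8 for both genes. The log2 fold changes at D10 against D8, -0.81 ± 0.57 for Krt8 (adjusted p = 0.366) and -0.75 ± 0.67 for Krt18 (adjusted p = 0.49), were not called, nor were they with the replicate block (adjusted p = 0.106 and 0.184). Without D8 replicate 2 they turned to 0.15 for Krt8 and 0.53 for Krt18.

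Between the controls, both keratins were higher in each D8 library than in each D1 library. Krt8 averaged 82.2 ± 58.1 CPM at D8 and 22.0 ± 0.932 CPM at D1, and Krt18 averaged 73.3 ± 62.0 CPM at D8 and 14.8 ± 3.80 CPM at D1 (SD, n = 2). The log2 fold changes of 1.90 ± 0.59 and 2.30 ± 0.71 were not called (adjusted p = 0.282 for each, edgeR). With the replicate block they were 1.70 ± 0.37 (adjusted p = 0.0419) and 2.06 ± 0.42 (adjusted p = 0.0325), and called. Without D8 replicate 2 they were 0.90 and 0.98, and without D8 replicate 1 they were 2.49 and 2.98 and called.

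Per kilobase, Krt8 over Krt18 was 0.872 and 0.991 in the D3 libraries, 1.29 and 0.949 in the D1 libraries, 0.897 and 0.76 in the D10 libraries and 1.03 and 0.773 in the D8 libraries. The processed pseudogene Krt8-ps had 3 to 17 reads and the antisense gene Gm36026 0 to 3 reads, against 265 to 3834 for Krt8.

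The summed level of markers of extraembryonic endoderm, another cell type that makes this keratin pair, was likewise highest at D8 and D10 and higher in replicate 2. The sums overlapped between D3 and D1, where both keratins had the lower values at D3. The largest terms of the sum in every group were the matrix genes Col4a1, Lama1, Sparc, Lamb1 and Col4a2. At D8 they averaged 703.3, 484.9, 438, 429.5 and 206.8 CPM in that order. Single markers did not all follow the sum. In D8 replicates 1 and 2, Cubn had 128.5 and 141.1 CPM and Dab2 55.3 and 67.6 CPM, while Gata4 had 13.7 and 30.1 CPM. In D10 replicates 1 and 2, Sox17 had 9.68 and 13.6 CPM, but Dab2 had 32.6 and 21.8 CPM and Cubn 101.3 and 59.6 CPM. Hnf4a averaged 2.06 CPM at D10 against 3.92 CPM at D1. The summed CPM of the 18 listed endoderm genes was 1566 and 2491 in D10 replicates 1 and 2, 1875 and 3240 in D8 replicates 1 and 2, 564.3 and 746 at D3, and 514.6 and 731.3 at D1. Of the 15 tested, 6 were higher and none lower at D8 against D1, with a median log2 fold change of 2.35 (all genes -0.0038), and 13 were higher with the replicate block. They include Sox17, at 14.8 against 1.83 CPM (3.01 ± 0.42, adjusted p = 0.0461, called in 3 of 8 fits without 1 library), and Dab2, at 61.4 against 6.69 CPM (3.19 ± 0.35, adjusted p = 0.0412, called in 5 of 8), and none was called without D1 replicate 1. At D10 against D8 1 was lower (Dab2, -1.18 ± 0.32, adjusted p = 0.0389, called in 5 of 8), with 1 higher and 3 lower under the block, and at D3 against D1 2 were higher, Gata6 (called in 5 of 8) and Pdgfra (called in 6 of 8). The part of such cells in the keratin values was not tested, and in bulk RNA fewer cells of a type and less RNA per cell cannot be told apart.

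**Figure D3:**
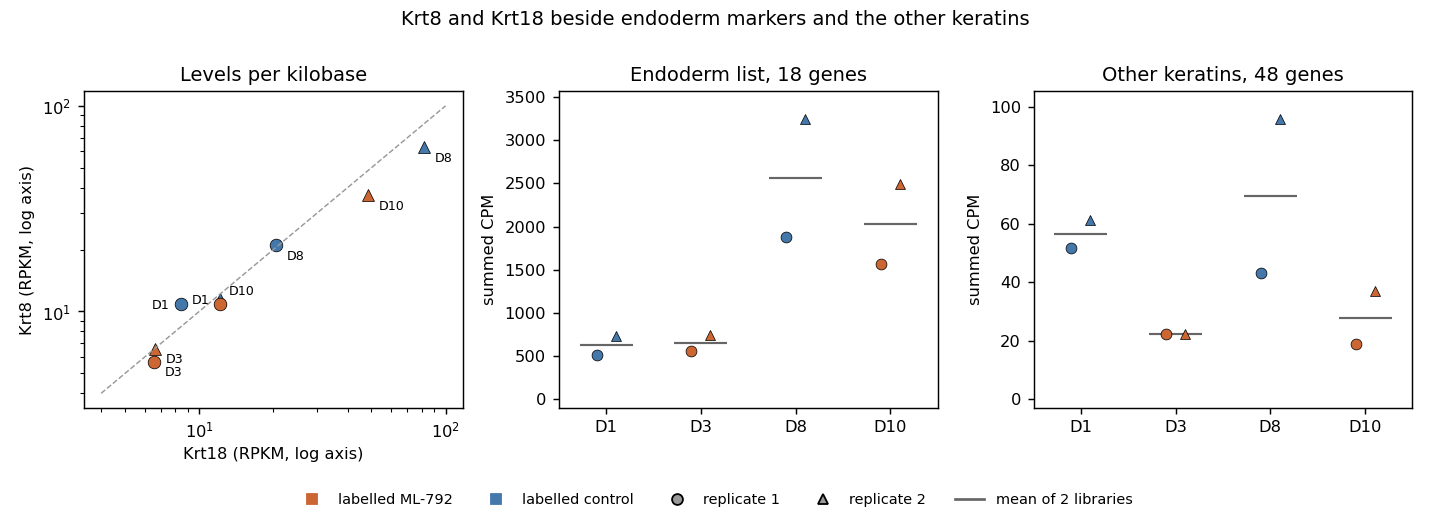
Left, Krt8 against Krt18 in each library (RPKM, log axes, dashed line of equality); middle and right, summed CPM (linear axes) of 18 endoderm markers and of 48 other keratins by day, with points coloured by label, shaped by replicate and grey bars at means of 2. D8 replicate 2 holds the highest value in each panel, with 63.0 RPKM for Krt8, 81.5 RPKM for Krt18 and sums of 3240 and 95.6 CPM; D1 replicate 2 lies almost under D10 replicate 1 on the left.

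Of 48 other keratin genes, 2 had no read (Krt9 and Krt40) and 14 passed the filter. At D3 against D1, 1 was higher and 2 lower, and at D10 against D8, 2 were higher and 3 lower, with medians of -0.18 and -0.63. None was called at D8 against D1, where the block called 2. The largest called change in each was that of Krt17, a type I keratin of stressed and basal epithelia, which had 2.15 and 1.84 CPM in the D3 libraries, against 20.4 and 23.4 CPM in the D1 libraries (-3.46 ± 0.53, adjusted p = 0.00617). It had 0.486 and 2.21 CPM in the D10 libraries, against 15.7 and 28.2 CPM in the D8 libraries (-3.94 ± 0.54, adjusted p = 0.00307), and both calls held in all 8 fits without 1 library. Krt42 had 10.3 and 10.7 CPM in the D3 libraries, against 22.0 and 27.6 CPM in the D1 libraries (-1.24 ± 0.29, adjusted p = 0.0254, called in 4 of 8 such fits), and was also lower at D10 (-1.30, adjusted p = 0.018, called in 6 of 8). Krt13 was lower at D10 than at D8, with 0.081 and 0.166 against 1.21 and 1.06 CPM (-3.07 ± 0.51, adjusted p = 0.006). Krt13 had 2 and 7 reads in the D10 libraries, and Krt5 had 2 and 2 reads in the D1 libraries. The sizes of the changes given here for these keratins therefore rest on few reads. Krt5 was higher at D3, with 0.757 and 0.661 against 0.0956 and 0.0621 CPM (3.15 ± 0.55, adjusted p = 0.0091, called in 5 of 8 such fits).

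Krt19 and Krt7, which are also keratins of simple epithelia, resembled Krt8 and Krt18 in their replicates. Krt19 had 3.89 and 13.3 CPM in D10 replicates 1 and 2, against 4.61 and 26.7 CPM in D8 replicates 1 and 2, and neither gene was called in any of the 3 comparisons. Taking the root mean square difference of centred log2 CPM over the 8 libraries as the measure of likeness, among 12754 genes, the nearest genes to Krt18 were Krt8 (0.227), Anxa1 (0.283) and Krt19 (0.32), where the median gene stood at 1.25. Those nearest to Krt8 were Krt18, Anxa1 (0.24) and Pth1r (0.364), with a median of 1.12. The nearest genes to Tead4 were Rsph1 (0.163), Gngt2 (0.187) and Srrm4os (0.2), with a median of 1.13. Those of Tfap2c were Bdkrb2 (0.14), Trp53i13 (0.184) and Cdo1 (0.206), and those of Eomes were Etohd2 (0.111), Msn (0.123) and Epas1 (0.13), with medians of 0.573 and 0.447. The SDs of log2 CPM of Krt18, Krt8 and Tead4 were also 1.25, 1.12 and 1.13. Such a median mostly reflects the spread of the member itself and sets no standard for likeness. The nearest genes are the smallest of 12754 values.

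**Figure D4:**
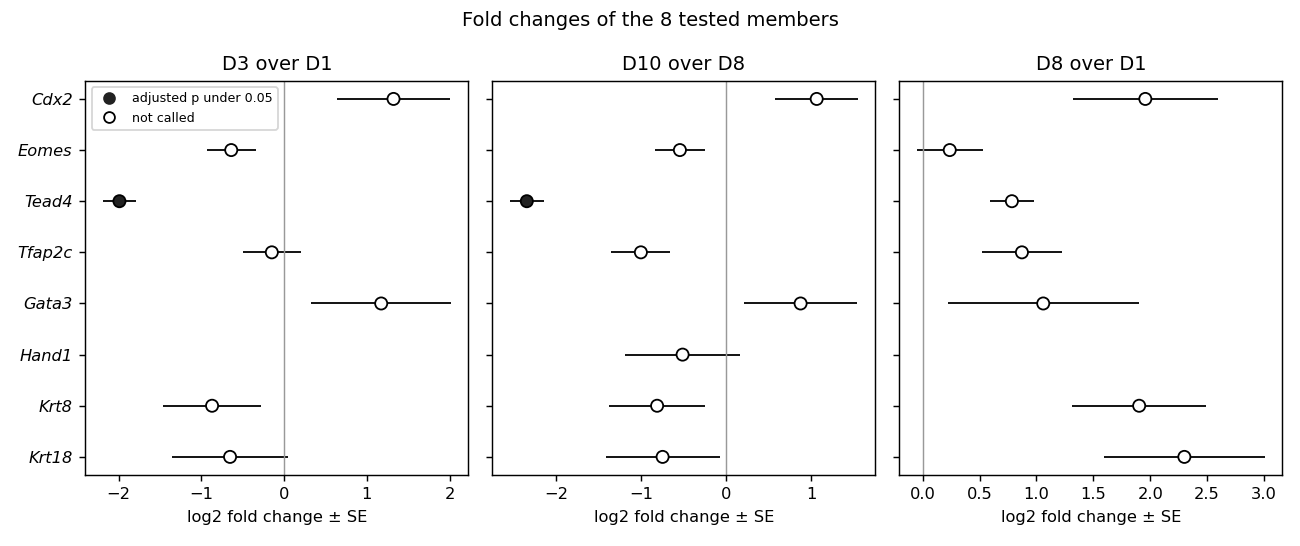
Log2 fold changes with SE of the 8 tested members for D3 over D1, D10 over D8 and D8 over D1; filled points have an adjusted p under 0.05, and Hand1 has no point where D1 is the second group. The Tead4 points at D3 over D1 and D10 over D8 are the filled ones, and at D8 over D1 all 7 points lie above 0 without a call.

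Around the members, 19 further trophoblast regulators were tested, of which 2 were higher and 6 lower at D3 against D1 (median -0.43) and 1 higher and 7 lower at D10 against D8 (median -0.43), with medians of -0.0019 and 0.031 over all genes. Esrrb, Klf5 and Tbx3 of this list also belong to the naive pluripotency list, and Tead1, Tead2, Tead3, Yap1 and Wwtr1 to the Hippo list. Beside Gata2, the lower genes include Ets2, an ETS factor of trophoblast stem cells, which had 19.3 and 20.0 CPM in the D3 libraries, against 47.1 and 53.1 CPM in the D1 libraries (-1.35 ± 0.16, adjusted p = 0.00283, called in all 8 fits without 1 library). Esrrb, an orphan nuclear receptor used in both trophoblast and naive stem cells, was at 254.1 CPM at D10 against 614.1 CPM at D8 (-1.27 ± 0.14, adjusted p = 0.00157, called in all 8). Sox21 was higher, at 8.25 ± 5.25 CPM at D3 against 2.22 ± 0.504 at D1 (1.89 ± 0.43, adjusted p = 0.0231) and 8.20 ± 0.197 CPM at D10 against 2.69 ± 0.198 at D8 (1.61 ± 0.42, adjusted p = 0.0318). Its D3 call was lost in 3 of 8 fits without 1 library (those without D1 replicate 1, D1 replicate 2 or D3 replicate 2, the last with a log2 fold change of 1.004), and its D10 call held in 2 of 8. The lowest totals in fits without 1 library were 3 called genes without D1 replicate 1 and 3 without D10 replicate 1. None was called at D8 against D1 by edgeR, with or without the block.

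Of 16 markers of trophoblast stem cells and extraembryonic ectoderm, 4 were higher and 3 lower at D3 against D1, and 3 higher and 3 lower at D10 against D8, with medians of 0.24 and -0.16. Fgfr2, the receptor through which FGF4 maintains trophoblast stem cells, had 12.6 and 12.3 CPM in the D3 libraries, against 2.29 and 1.86 CPM in the D1 libraries (2.59 ± 0.25, adjusted p = 0.00156, called in all 8 fits without 1 library). It was also the 1 called gene at D8 against D1, at 6.83 against 2.08 CPM, and the block called 4. That call held in 1 of 8 fits without 1 library, with an adjusted p of up to 0.504. Fgf4, the ligand, which stands in the naive pluripotency list, was at 53.6 CPM at D3 against 221.8 CPM at D1 (-2.05 ± 0.17, adjusted p = 0.000912) and 35.6 CPM at D10 against 205.3 CPM at D8 (-2.52 ± 0.17, adjusted p = 0.000415). Mmp9, a protease of invading trophoblast, had 5.99 and 7.22 CPM in the D10 libraries, against 1.24 and 1.93 CPM in the D8 libraries (2.06 ± 0.32, adjusted p = 0.0049). Among the lower markers, Lgals3 was at 4.09 CPM at D3 against 21.4 CPM at D1 (-2.39 ± 0.46, adjusted p = 0.0124, edgeR). Sox15 was at 2.26 CPM at D10 against 10.3 CPM at D8 (-2.15 ± 0.44, adjusted p = 0.0133, edgeR). Cldn4, lower in both exposures, is given below with the genes of simple epithelium. Without D1 replicate 2 the list had 1 call at D3 against D1, and without D8 replicate 2 it had 3 at D10 against D8.

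Of 19 listed placental and differentiated trophoblast genes, 12 were in the table. Prl3d1, Prl3b1, Prl2c2, Tpbpa, Tpbpb, Synb and Psg21 were not found in it, so their RNA was not assessed. Of the 12, 4 passed the filter, and 1 was higher and 1 lower in each exposure. Peg10, an imprinted gene of the placenta, had 164.8 and 131.1 CPM in the D3 libraries, against 51.6 and 58.7 CPM in the D1 libraries (1.42 ± 0.27, adjusted p = 0.0114), a call lost in 3 of 8 fits without 1 library (D1 replicate 1, D1 replicate 2 or D3 replicate 1, adjusted p of up to 0.0882). Phlda2, an imprinted gene that restrains placental growth, had 12.0 and 8.52 CPM in the D3 libraries, against 34.7 and 35.7 CPM in the D1 libraries (-1.78 ± 0.21, adjusted p = 0.00276). At D10 against D8 the values were 1.34 ± 0.26 for Peg10 (not called without D10 replicate 2) and -1.61 ± 0.21 for Phlda2. The differentiation genes Prl2a1, Psg17, Syna, Ctsq, Pcdh12 and Cts7 had at most 6 reads in any library. Cts7 had no read in the D1 and D8 libraries, and averaged 0.133 CPM at D3 and 0.169 CPM at D10.

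Of 20 tested genes of simple epithelium, the tissue type in which Krt8 and Krt18 pair, 2 were higher and 5 lower at D3 against D1 (median -0.54), and none higher and 8 lower at D10 against D8 (median -0.93). With the replicate block the first counts were 2 and 9. The list did not move as 1. Ovol1 was called higher at D3, at 1.88 against 0.567 CPM at D1 (1.74 ± 0.48, adjusted p = 0.0464, edgeR), a call that did not hold in all 8 fits without 1 library. Epcam averaged 150.3 CPM at D3 against 80.8 CPM at D1, and 180.6 CPM at D10 against 135.7 CPM at D8. The tight-junction gene Cldn4 had 3.74 and 5.18 CPM in the D3 libraries, against 23.1 and 38.6 CPM in the D1 libraries (-2.79 ± 0.51, adjusted p = 0.011, called in 6 of 8 fits without 1 library), and 5.06 and 14.3 CPM in the D10 libraries, against 48.2 and 89.9 CPM in the D8 libraries (-2.81 ± 0.50, adjusted p = 0.00786). Lad1, a protein of the basement membrane anchor, stood at -1.86 ± 0.28 at D3 against D1 (adjusted p = 0.00572, called in 7 of 8) and -2.75 ± 0.26 at D10 against D8 (adjusted p = 0.000987), and was higher at D8 than at D1 (2.40 ± 0.26, adjusted p = 0.0412, called in 5 of 8). Lad1 and Plec were the 2 called higher there, and the block called 9. No gene of the list was called at D3 against D1 without D1 replicate 2, 5 were at D10 against D8 without D10 replicate 1, and none at D8 against D1 without D1 replicate 1.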

How the data were processed

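RNA of 8 libraries was used. The authors deposited raw counts, whole numbers of reads per Ensembl gene without normalization. Per the submitters' processing notes, the build is mm10 and the tools are bcl2fastq 2.17.1.14, STAR 2.5.0a and featureCounts, whose annotation, strand and multiple-match settings were not given in the sources used. The label polyA RNA differs from the protocol, which names a stranded kit for total RNA depleted of ribosomal RNA. D1 replicate 2 carries a time tag of day 0 and was kept in D1 by its title.

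Symbols, exon lengths and coordinates came from GENCODE M21 (GRCm38), with 36901 identifiers named and 19 not. In R 4.3.3, edgeR 4.0.16 (TMM, filterByExpr, quasi-likelihood F test, 2-sided) fitted the 4 groups of all 8 libraries (residual df 4, common biological variation 19.6%). ML-792 against control was a separate fit. The Benjamini-Hochberg adjustment ran over 19173 genes. The SE is the log2 fold change over the square root of F. Log2 CPM used a prior count of 2, and the detection limit of 3 reads covers counting error only.

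Replicate numbers were taken as pairs because their deviations correlated across genes at 0.101 to 0.498 for all 6 pairs of groups. The correlation of counts with GC content was higher in replicate 2 than in replicate 1 of every group. It was 0.133 against -0.0627 at D1, -0.284 against -0.33 at D3, 0.546 against 0.0637 at D8 and 0.042 against -0.336 at D10. The part of GC content in the pairing was not tested. Alternatives were the replicate block, GC and length correction (19165 genes), RLE size factors, DESeq2 1.42.0, other filters, fits of 2 groups and leaving out each library. The named genes are all members, up to 4 called genes of largest change per list and comparison, the 3 genes most like each member with a mean of at least 1 CPM, and genes overlapping a member. Genes of a list named at a comparison where they fall outside this rule, and Krt19, Krt7, Yap1 and the unfiltered placental genes, were chosen after their values were seen. Members and lists were chosen with earlier results of these data known.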

Additional observations from a re-analysis of the deposited data

Results flagged for a closer look

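Krt8 in D10 replicate 2, at 71.92 CPM, stood apart from the other 3 ML-792 libraries, which lay between 11.1 and 21.3 CPM. Krt18 in the same library, at 69.43 CPM, stood apart from the other ML-792 libraries, at 9.38 to 17.4 CPM. Krt18 in D8 replicate 2, at 117.1 CPM, stood apart from the other 3 control libraries, at 12.1 to 29.4 CPM. Each gap exceeded Dixon's 95% critical value for 4 libraries, a limit that chance passes in about 1 in 20 groups, and each set of 4 libraries holds 2 days. The summed endoderm markers were also higher in replicate 2 than in replicate 1 of the same day (2491 against 1566 CPM at D10 and 3240 against 1875 CPM at D8). The largest terms of that sum were matrix genes such as Col4a1 and Lama1. The part of the endoderm markers in the keratin values was not tested.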

How the results depend on the processing

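Of 599 alternative values of the members' 40 fold changes, 550 kept direction and side of the threshold, 28 passed it anew and 21 reversed, each of these in a fit without 1 library. Each fold change with a reversed value spanned both signs in those fits, and its reversed values are those opposite in sign to the value with all 8 libraries. The whole ranges were -0.33 to 0.026 for Tfap2c at D3 against D1; at D10 against D8, -1.98 to 0.15 for Krt8, -2.10 to 0.53 for Krt18 and -0.031 to 1.71 for Gata3; and -0.14 to 0.78 for Eomes at D8 against D1. For the difference of responses, with all 8 libraries at -0.26 (Cdx2), 0.095 (Eomes), -0.30 (Gata3), 0.059 (Krt8) and -0.094 (Krt18), the ranges were -0.78 to 0.43, -0.45 to 0.47, -1.19 to 0.56, -1.09 to 1.04 and -1.43 to 1.21 in the same order. For ML-792 against control they were -1.81 to 0.022 (Krt8) and -1.89 to 0.40 (Krt18), with -0.82 and -0.73 over all 8 libraries. Tead4 kept its calls at both exposures and over all libraries in all fits run.

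Without the low-count filter, 3847 genes and 3 members were called at D3 against D1, 4576 genes and 4 members at D10 against D8, 973 genes and 5 members at D8 against D1, and 66 genes in the difference. With the replicate block the counts were 4187 genes, 5298 genes and 2 members, and 535 genes and 3 members in the order D3, D10, D8. With the GC correction they were 4165 genes, 4648 genes and 2 members, and 87 genes, and with the block and the GC correction 6117 genes, 6446 genes and 3 members, and 667 genes and 2 members. DESeq2 called 3472 genes and 2 members at D10 against D8, 429 genes and 1 member at D8 against D1, 3 genes in the difference, and 6157 genes and 2 members over all libraries. Fits of 2 groups called 4035 genes and 2 members, 1512 genes, and 2 genes. The block changed no other call of a member. Without 1 library, 387 to 3238 genes were called at D3 against D1 (lowest without D1 replicate 2), 1420 to 4304 at D10 against D8 (lowest without D10 replicate 1), 0 to 436 at D8 against D1 and 4150 to 5781 over all libraries; members numbered 1 to 2 at D10 against D8, 0 to 2 at D8 against D1 and 1 to 2 over all. The causes were not tested.

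The GC correction put the share of calls that were higher at 43.5% in place of 60.8% at D3 against D1, 41.5% in place of 54.8% at D10 against D8 and 39.7% in place of 53.2% over all libraries, where the median of all genes moved to -0.103 in place of 0.0031. Counts of list genes without 1 library, with the block and with the GC correction were added after the data were seen. Of the list genes named as called, 8 of 29 at D3 against D1, 16 of 30 at D10 against D8 and 0 of 9 at D8 against D1 held in all 8 fits without 1 library. With 2 libraries a group and few reads, the log2 fold changes of Cdx2, Gata3 and Hand1 had SEs of 0.49 to 1.29 in the comparisons of days.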

Other observations

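Of 15 tested genes of naive pluripotency, none was higher and 7 lower at D3 against D1 (median -0.72), or 2 higher and 11 lower with the replicate block, and none higher and 12 lower at D10 against D8 (median -1.16). Tfcp2l1, a factor of the naive network, was at 206.2 CPM at D3 against 495.2 CPM at D1 (-1.26 ± 0.13, adjusted p = 0.00205, edgeR) and 133.3 CPM at D10 against 644.5 CPM at D8 (-2.27 ± 0.14, adjusted p = 0.000376). Tcl1 stood at -2.14 ± 0.27 and -2.58 ± 0.27 in these comparisons. Their calls held in all 8 fits without 1 library, and the lowest list totals were 3 genes without D3 replicate 1 and 8 without D10 replicate 1.

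Of 12 tested genes of the primitive streak and mesoderm, cells that also use Eomes, Cdx2 and Hand1, 2 were higher and none lower in each exposure (4 higher and 1 lower at D3 against D1 with the block). These counts are near the share of all tested genes called, 13% at D3 against D1 and 16.9% at D10 against D8. The called genes were Cdx4 and Tbx20 at D3 against D1, and Cdx4 and T at D10 against D8. Tbx20, at 1.34 ± 0.32 (adjusted p = 0.0277, edgeR), was not called with the GC correction (0.95, adjusted p = 0.0556) or in 4 of 8 fits without 1 library. No gene of the list was called at D3 against D1 without D1 replicate 1, or at D10 against D8 without D8 replicate 1. Of 8 tested genes of epidermis and surface ectoderm, 1 was higher and 2 lower in each exposure, among them Sfn, at 16.3 CPM at D10 against 57.0 CPM at D8 (-1.80 ± 0.29, adjusted p = 0.0058). Of 5 tested fibroblast markers, which feeder cells would carry, 1 was higher at D3 against D1 and 1 lower at D10 against D8. The summed level of the 9 listed markers in the count table, tested or not, was 6.15 to 11.8 CPM in ML-792 libraries and 9.6 to 19.7 CPM in controls.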
